A study of Mus musculus with 9 samples.

Results

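A group of 9 genes of glutamine metabolism were followed in the hearts of newborn mice that lack Arid1a in cardiomyocytes: the synthetase Glul, the catabolic enzymes Gls2 and Glud1, and the transporter genes Slc1a5, Slc38a1, Slc38a2, Slc38a3, Slc7a5 and Slc3a2. They are 9 of the 38293 genes in the count table and were chosen by their function in glutamine metabolism together with measured values of these same libraries, the abundance of Glul and its higher level in cKO than in control, so their differences between the genotypes are given as a description, without a p. Where a member is said to lie past a threshold or not, this describes the fit over all genes and supports nothing. All 9 members passed the filter on low counts that left 15318 genes to test. Ventricles were taken at postnatal day 7. The 5 control libraries came from Arid1a f/f littermates, which carry the floxed alleles without Cre, and the 4 cKO libraries from αMHC-Cre;Arid1a f/f pups, in which the cardiomyocyte promoter αMHC drives Cre. Both groups are therefore homozygous for the floxed allele, and no library with Cre alone was included. The pups were on a C57BL/6J background and of both sexes. RNA came from whole ventricle tissue, which also holds non-myocytes that αMHC-Cre does not target, and in such bulk RNA fewer cells of a type and less RNA per cell cannot be told apart.

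Glutamine is the most abundant free amino acid in blood and the main carrier of nitrogen between tissues. Cells make it from glutamate and ammonia by glutamine synthetase and break it down by glutaminases to glutamate, which glutamate dehydrogenase or transaminases pass on to α-ketoglutarate, an intermediate of the citrate cycle. Sodium-coupled carriers concentrate glutamine inside the cell, and exchangers trade it across the membrane for other neutral amino acids such as leucine. Striated muscle is a large store and an exporter of glutamine.

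Total counts per library ranged from 31011055 to 40073801. Arid1a, the targeted gene, was measured at 128.05 to 148.1 CPM (read counts scaled to a common library size, with TMM factors) in controls and at 100.3 to 112.9 CPM in cKO, so each library matched its label. Of the genes tested, 6.72% were called between the genotypes (4.01% higher and 2.72% lower in cKO), which means a Benjamini-Hochberg adjusted p under 0.05 in edgeR's quasi-likelihood test together with a fold change over 1.5, and 16.3% passed the adjusted p alone (8.25% higher and 8.03% lower). The groups did not overlap for 16.7% of genes, with all cKO libraries above all controls for 8.16% and below them for 8.58%. One split of the libraries runs across genotype. The processed pseudogene Rps3a3 was at 0.345 to 0.521 CPM in 5 libraries (the first 2 of control and the first 3 of cKO by number), called the Rps3a3-low set here, and at 99.7 to 112.3 CPM in the other 4 (control replicates 3 to 5 with cKO replicate 4), the Rps3a3-high set. Its parent gene Rps3a1 went the other way, with 253.1 to 275.6 CPM in the low set and 70.8 to 75.7 CPM in the high set. The labels give no batch for this split, and values within each set are given beside the results that it touches.

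Glul, which encodes glutamine synthetase, lies on chromosome 1 (GRCm38, 153899944 to 153909723, plus strand). The 250 bases upstream of its RefSeq start (GRCm38.p6, chr1:153899679-153899928, plus strand) are printed because this is the member whose level differed most, beside those of Slc38a2 (chr15:96699729-96699978, minus strand), the most abundant member in controls and one whose groups overlapped. Both are written 5′ to 3′ in the direction of transcription, and capitals mark CCAAT and the GC box GGGCGG on either strand.
Glul: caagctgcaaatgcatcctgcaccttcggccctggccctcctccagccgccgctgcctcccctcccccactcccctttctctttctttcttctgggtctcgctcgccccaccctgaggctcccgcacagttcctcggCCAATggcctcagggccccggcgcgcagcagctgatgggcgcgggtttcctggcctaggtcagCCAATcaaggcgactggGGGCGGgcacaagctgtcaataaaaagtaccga
Slc38a2: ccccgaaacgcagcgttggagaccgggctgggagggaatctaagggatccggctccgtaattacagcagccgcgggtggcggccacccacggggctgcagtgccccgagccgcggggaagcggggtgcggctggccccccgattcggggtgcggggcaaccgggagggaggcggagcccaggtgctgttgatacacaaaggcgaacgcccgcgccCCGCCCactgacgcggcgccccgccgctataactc

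The promoter table held 4 of the 9 members, the other 2 being Glud1 and Slc3a2. The letters CCAAT stood 2 times in the window of Glul, ending 109 and 46 bases before the start, and in none of the other 3. Over all 32851 promoters of this length, 33.8% hold CCAAT on either strand. GGGCGG, held by 32.7% of all promoters, occurred 1 time in Glul, Slc38a2 and Slc3a2 and 3 times in Glud1. The E-box CACGTG (6.02% of all promoters), CATTCC as bound by TEAD factors (12.6%), TATAAA (12.4%) and the core of the amino acid response element, TGATGNAAN (3.44%), were not found in any of the 4 windows. GC content was 64.8% for Glul, 82% for Glud1, 72% for Slc38a2 and 53.6% for Slc3a2, against a median of 52.4% over all promoters.

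The level of Glul was 178.6, 176.8, 178.8, 192.1 and 171.5 CPM in control replicates 1 to 5 and 425.5, 519.3, 520.6 and 579.7 CPM in cKO replicates 1 to 4. The lowest cKO library thus lay above the highest control by a wide margin. The means were 179.6 ± 7.59 (SD, n = 5) and 511.2 ± 63.7 CPM (SD, n = 4), a 2.85-fold higher level in cKO (log2 fold change 1.51, SE 0.08). Spread was greater among the mutants than among the controls, where the 5 libraries stayed within 171.5 to 192.1 CPM. Within the Rps3a3-low set the mean log2 difference was 1.45, and within the Rps3a3-high set, which holds 1 cKO library, it was 1.68. Since the rise of Glul served to choose the members, this is a description of the libraries and no p is given. A processed pseudogene, Glns-ps1, shares 1126 bases with Glul at 96.8% identity, and it held 168 counts over all 9 libraries against at least 5304 for Glul in a single library. Adding these counts to Glul left its log2 fold change at 1.51. Teddm2, on the opposite strand, overlaps 116 exonic bases of Glul and had 11 counts in total.

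**Figure D1:**
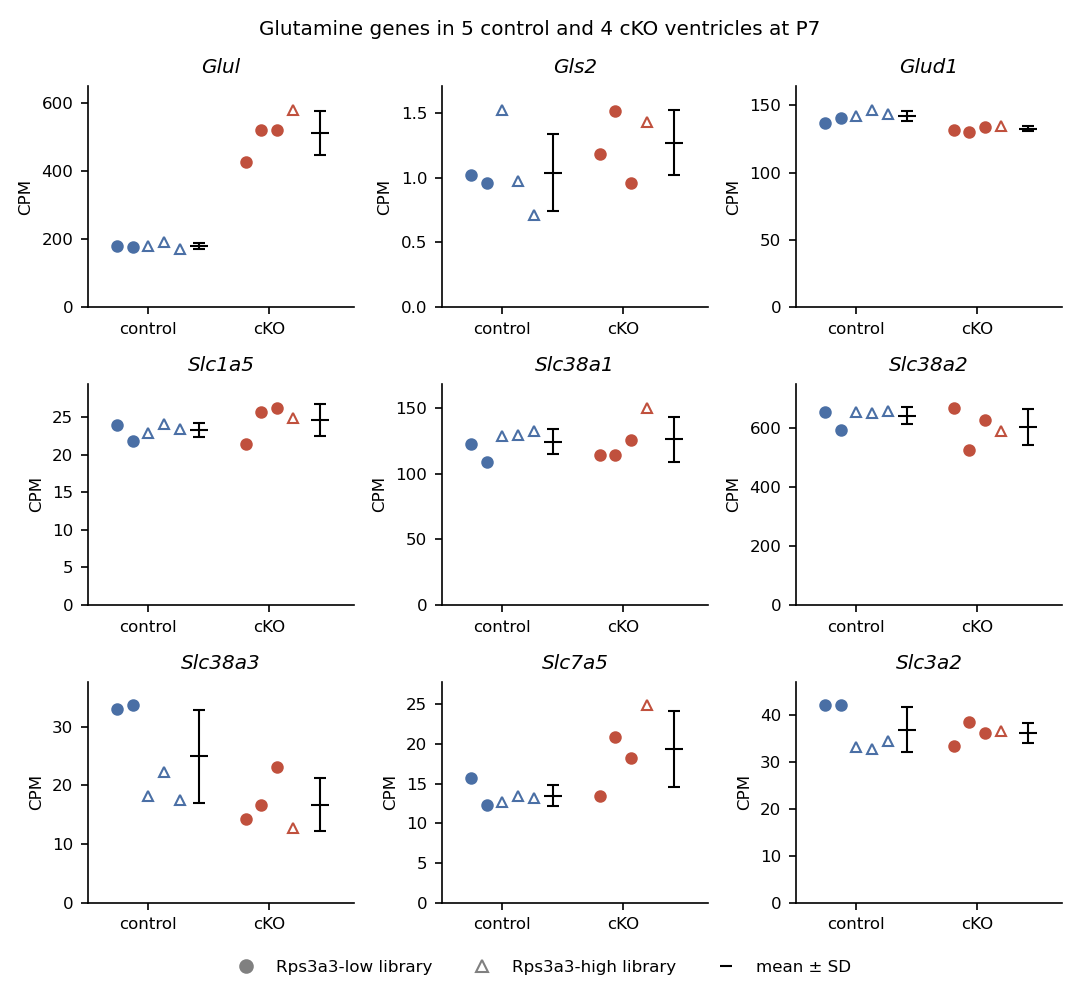
CPM of each member (vertical axes, each from 0) in the 5 control (blue) and 4 cKO (red) libraries; filled circles are Rps3a3-low and open triangles Rps3a3-high libraries, and the black bar is the mean with its SD. Glul lies at 171.5 to 192.1 CPM in controls and 425.5 to 579.7 CPM in cKO, and Slc38a3 is at 33.0 and 33.6 CPM in the 2 control libraries of the low set.

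Marker genes of cell types were compared between the genotypes. Cardiomyocyte markers summed to 59489 to 68055 CPM in controls and 52671 to 56656 CPM in cKO, ranges that did not overlap. Of the 9, 2 fell (Myl2 and Pln, with an adjusted p of 0.00124 and 0.00875 in edgeR's test) and 7 did not pass. The paper counts Myl2 among the maturation markers that are lower in these mutants. Fewer cardiomyocytes and less RNA of these genes per cell cannot be told apart here. Fibroblast markers summed to 5587 to 6902 CPM in controls and 6762 to 8020 CPM in cKO, and 3 of 7 rose: Col1a1, Col1a2 and Tcf21. The others overlapped between the groups and did not pass, with log2 fold changes of 0.14 (Col3a1), 0.11 (Pdgfra), 0.06 (Lum) and -0.04 (Dcn). Atrial markers summed to 60.5 to 137.2 CPM in controls and 126.6 to 190.03 CPM in cKO, and the sum followed Myl7, which passed the test with a log2 fold change of 1.20, while Myl4 (0.16) and Sln (-1.25) did not pass. Among the markers of mural cells, macrophages, lymphocytes, erythroid cells and glia 0 passed in edgeR, where 2 mural and 2 erythroid genes had an unadjusted p under 0.05, and 1 erythroid gene passed in DESeq2, while 1 of 7 endothelial and 1 of 4 epicardial markers fell. Macrophage markers summed to 93.2 to 157.1 CPM in controls and 102.6 to 185.9 CPM in cKO. Hepatocyte markers, of a tissue rich in glutamine synthetase, summed to at most 3.71 CPM in any library, skeletal muscle markers to at most 2.20 CPM and adipocyte markers to at most 0.898 CPM. The part of these shifts in the level of Glul was not tested.

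The enzymes that use glutamine and glutamate among the members did not follow Glul. Gls2 (chromosome 10, 128194457 to 128210004) encodes the liver-type mitochondrial glutaminase. It was barely detected, at 1.02, 0.956, 1.52, 0.975 and 0.711 CPM in controls and 1.18, 1.51, 0.956 and 1.43 CPM in cKO. These levels stand for 22 to 59 reads per library, the groups overlapped, and the log2 fold change was 0.29 with an SE of 0.25. Gls2 shares 97 exonic bases with the antisense gene Spryd4, which had 11802 counts over the 9 libraries. The strand setting of the counting is not given in the sources used here, so reads on these shared bases cannot be told apart from reads of Spryd4. The shared bases are a small part of the 3474 exonic bases of Gls2, but Spryd4 had far more reads than Gls2. Its part in the count of Gls2, and in ratios to Gls2, was not tested.

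Glud1 (chromosome 14, 34310727 to 34345265) encodes mitochondrial glutamate dehydrogenase, which turns glutamate into α-ketoglutarate and ammonia. It was measured at 136.5, 140.5, 142.4, 146.7 and 143.9 CPM in controls and at 131.9, 130.2, 133.8 and 134.6 CPM in cKO. All cKO libraries were below all controls, yet the step was small, with a log2 fold change of -0.10 (SE 0.05), which is 0.934 times the control level and passed neither threshold. Glud1 and Glul were the 2 of 9 members whose groups did not overlap, one below and one above, beside 16.7% of all genes. The within-set log2 differences of Glud1 were -0.07 among Rps3a3-low and -0.10 among Rps3a3-high libraries.

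The sodium-coupled carriers Slc38a1 (chromosome 15, 96571418 to 96642913) and Slc38a2 (chromosome 15, 96687392 to 96699730) are neighbours on the minus strand and belong to the system A family, which brings glutamine and other small neutral amino acids into the cell. Slc38a2 was measured at 656.5, 594.1, 654.7, 651.4 and 660.4 CPM in controls and at 671.0, 526.1, 629.0 and 590.3 CPM in cKO. The highest and the lowest of all 9 values were both cKO libraries, and the log2 fold change was -0.09 (SE 0.07). Slc38a1 was at 122.3, 108.6, 128.8, 129.7 and 132.7 CPM in controls and at 114.6, 113.9, 125.6 and 150.4 CPM in cKO. Its groups overlapped as well, and the log2 fold change was 0.02 (SE 0.09), with within-set differences of 0.03 in the low and 0.21 in the high set.

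Slc38a3 (chromosome 9, 107650634 to 107669530) encodes a system N carrier, which can move glutamine in either direction across the membrane and is best known from liver, kidney and brain. It was the most variable of the carriers, with 33.0, 33.6, 18.2, 22.3 and 17.5 CPM in control replicates 1 to 5 and 14.3, 16.7, 23.1 and 12.8 CPM in cKO replicates 1 to 4. Over all libraries the groups overlapped and the log2 fold change of -0.58 (SE 0.25) passed neither threshold. Within the Rps3a3-low set the controls, at 33.0 and 33.6 CPM, were above the 3 cKO libraries, and within the Rps3a3-high set the controls, at 17.5 to 22.3 CPM, were above the cKO library at 12.8 CPM. The log2 differences were -0.90 and -0.57 in these sets. With the library set as a second term the log2 fold change was -0.78 (SE 0.14) and Slc38a3 lay past both thresholds.

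Slc1a5 (chromosome 7, 16781340 to 16798274) encodes a sodium-dependent exchanger of neutral amino acids and a main route of glutamine entry in dividing cells. Its level was 24.0, 21.8, 22.9, 24.1 and 23.5 CPM in controls and 21.5, 25.7, 26.3 and 24.9 CPM in cKO. Although 3 of 4 cKO libraries were above all controls, cKO replicate 1 was below all of them, and the log2 fold change was 0.08 (SE 0.08).

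Slc7a5 (chromosome 8, 121881150 to 121907694) and Slc3a2 (chromosome 19, 8706882 to 8723369) encode the light and the heavy chain of one heterodimer, which lets glutamine out in exchange for leucine and other large neutral amino acids. The light chain carries the transport, and the heavy chain takes it to the membrane and pairs with other light chains as well. Slc7a5 was at 15.7, 12.3, 12.7, 13.5 and 13.2 CPM in controls and at 13.5, 20.9, 18.3 and 24.9 CPM in cKO. The cKO libraries 2, 3 and 4 were above every control, while cKO replicate 1 lay among them. The log2 fold change was 0.53 (SE 0.15), a 1.44-fold difference that was past the adjusted p but not the fold threshold. It stayed past the adjusted p in 9 of 18 alternative settings, but not after leaving out a single library other than the first of each group, in the Rps3a3-low set alone or with the replicate number as a block. Without cKO replicate 1 it was 0.66 and without cKO replicate 4 it was 0.38. The within-set log2 differences were 0.30 among Rps3a3-low and 0.90 among Rps3a3-high libraries.

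The partner chain did not share this difference. Slc3a2 was at 42.0, 42.0, 33.1, 32.8 and 34.3 CPM in controls and at 33.3, 38.4, 36.0 and 36.6 CPM in cKO, with a log2 fold change of -0.03 (SE 0.09). The highest values were those of the controls in the Rps3a3-low set, and the within-set log2 differences had opposite signs, -0.23 in the low and 0.13 in the high set. The per-length ratio of Slc7a5 to Slc3a2 was 0.279 to 0.391 in controls and 0.385 to 0.648 in cKO, which overlapped at cKO replicate 1.

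**Figure D2:**
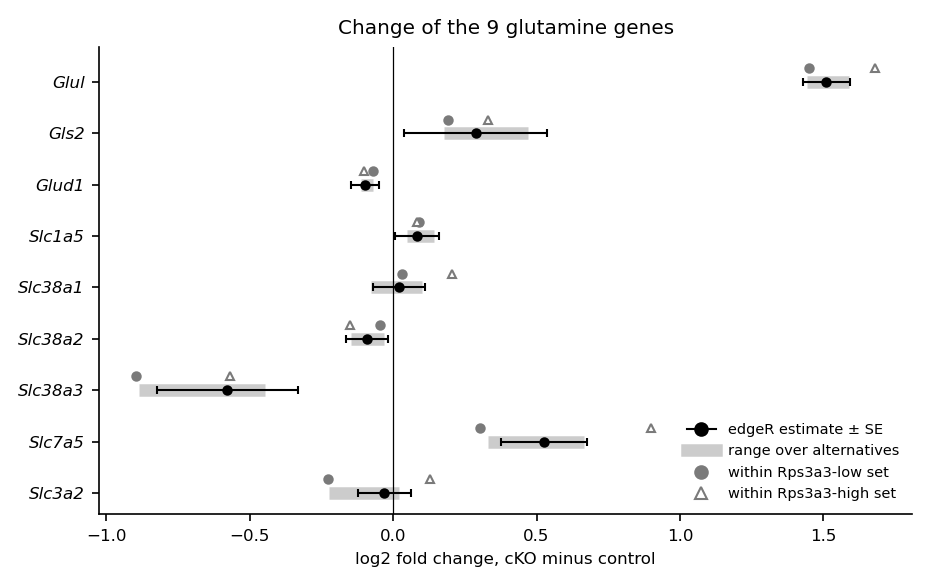
Log2 fold change of each member, cKO minus control (horizontal axis): black points are edgeR estimates with their SE, grey bars the range over all alternative settings, and grey symbols the mean log2 difference within each library set. Glul stands at 1.51, away from the other 8 members, whose estimates lie between -0.58 and 0.53.

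Over the 9 members, then, 1 lay past both thresholds, beside 6.72% of all genes called and 4.01% called higher. That one was Glul, whose higher level was part of the choice. Slc7a5 was past the adjusted p besides Glul, where 16.3% of all genes were and 8.25% with a higher level. The median log2 fold change of the members was 0.02, and that of all genes tested was 0.01. Since Glul was known to be higher when the members were chosen, nothing is read from these counts.

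Levels were compared between genes per length, as CPM per kilobase of the union of a gene's exons. Slc38a2 was the highest member in control ventricles, with 72.8 ± 3.14 CPM per kilobase (SD, n = 5), at the 96.8th percentile of the 15174 tested genes with an annotated length. Glul came second with 54.04 ± 2.28 (95.6th percentile) followed by Glud1 with 33.7 ± 0.909. The ranges of these 3 over the control libraries were separate. Slc3a2 followed with 10.4 ± 1.34, Slc38a1 with 7.22 ± 0.558, Slc1a5 with 5.57 ± 0.226, Slc38a3 with 4.73 ± 1.49, Slc7a5 with 3.63 ± 0.353 and Gls2 with 0.299 ± 0.0856 CPM per kilobase. Neighbours in this order were separate over the libraries except for Slc1a5 and Slc38a3, and Slc38a3 and Slc7a5, whose ranges overlapped. When the longest transcript was used as the length, Slc38a1 and Slc3a2 exchanged the 4th and 5th places. The levels themselves depend on this choice, most of all that of Slc38a1, with a control mean of 17.1 in place of 7.22 CPM per kilobase.

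In cKO ventricles the order differed in 2 places. Glul, with 153.9 ± 19.2 CPM per kilobase (SD, n = 4), stood above Slc38a2 with 68.3 ± 6.97, and Slc7a5 with 5.23 ± 1.29 stood above Slc38a3 with 3.17 ± 0.858. The per-length ratio of Glul to Glud1 was 1.51 to 1.66 in controls and 4.09 to 5.46 in cKO, and that of Glul to Gls2 was 122.7 to 252.05 in controls and 359.3 to 569.3 in cKO. Both ratios have Glul, chosen for its rise, as numerator, and the second rests on the 22 to 59 reads of Gls2 per library. Among the 3 Slc38 carriers, Slc38a2 made up 84.1% to 87.1% of the summed per-length level in controls and 85.7% to 89.0% in cKO. The share of Slc38a3 was 3.87% to 7.98% in controls and 3.11% to 5.28% in cKO, which overlapped. These shares depend on the length used. With the longest transcript as the length, the control means were 105.2 for Slc38a2, 17.1 for Slc38a1 and 7.92 CPM per kilobase for Slc38a3, which gives Slc38a2 a lower share.

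**Figure D3:**
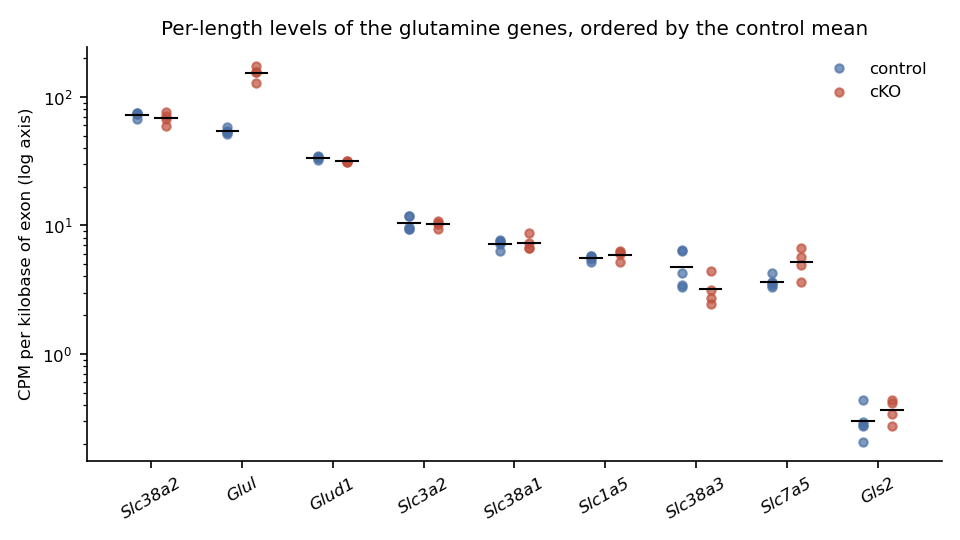
Level of each member per length (vertical log axis, CPM per kilobase of exon) in control (blue) and cKO (red) libraries, ordered by the control mean; points are libraries and black bars are means. Glul is second to Slc38a2 in controls and first in cKO, at 153.9 CPM per kilobase.

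The difference between the library sets was tested with genotype as a second term, a contrast that did not serve to choose the members. Between the sets 4.81% of all genes passed an adjusted p of 0.05, and 2 of the 9 members did. Slc38a3 was lower in the Rps3a3-high set (log2 difference -0.67, SE 0.14, adjusted p = 0.0253 in edgeR's quasi-likelihood test), with a mean of 33.3 CPM in the low and 19.4 CPM in the high controls. Slc38a1 was higher in the high set (log2 difference 0.24, SE 0.06, adjusted p = 0.0448), with means of 115.5 and 130.4 CPM in the low and the high controls. Neither passed without control replicate 2, control replicate 3, control replicate 5 or cKO replicate 4, where the adjusted p of Slc38a3 was between 0.0598 and 0.109 in edgeR's test, and 1 of them did without control replicate 1, control replicate 4 or cKO replicate 3. For Glul the log2 difference between the sets was 0.11 (SE 0.08, adjusted p = 0.396).

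Whether genotype acted differently in the 2 sets was tested as an interaction, which 2 of the 15318 genes passed (0.0131%, with 620 genes at an unadjusted p under 0.05). Of the members 0 passed in edgeR, as in DESeq2, and 1 had an unadjusted p under 0.05 in edgeR. The largest estimate was that of Slc7a5 (0.59, SE 0.27), followed by Slc3a2 (0.36, SE 0.14) and Slc38a3 (0.29, SE 0.29), and the adjusted p in edgeR's test was 0.947 for each. The Rps3a3-high set holds 1 cKO library, which limits this test.

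The members also varied among libraries of the same genotype. After the group means had been removed, the log2 level of Glul had a Pearson r of 0.858 with that of Slc7a5 and 0.734 with that of Slc1a5 over the 9 libraries. In the cKO group, replicate 1 was the lowest library for Slc1a5, Slc7a5 and Glul alike. On the log2 scale Glul deviated by -0.26 to 0.19 in the cKO libraries and by -0.07 to 0.10 in the controls. The cKO libraries therefore weigh most in its r values. Slc3a2 had an r of 0.735 with Slc38a3 and of -0.738 with Glud1. The libraries share their depth, scaling and set, and these values are descriptions over 9 points. Of 10801 protein-coding genes with at least 5 CPM, the 5 whose within-group pattern was most like that of Glul were Me2 (r = 0.967), which encodes a mitochondrial malic enzyme, the kinase gene Rps6ka2 (0.954), Pdia5 (0.950) of the disulfide isomerase family, the glypican gene Gpc2 (0.941) and Ncapd3 (0.936), which encodes a condensin subunit. When the library set was removed as well, 1 of these 5, Me2, was among the nearest 5 (r = 0.968). Among 10801 genes compared over 9 libraries, some reach a high r by the selection alone. A link of these genes to Glul was not tested.

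The wider pathway was read from 6 lists that hold 108 genes besides the members, 106 of them in the table and 94 tested. Between the genotypes 13 rose and 9 fell at an adjusted p under 0.05, and 6 of the former and 4 of the latter were called, beside 16.3% of all genes past the adjusted p (8.25% higher and 8.03% lower) and 6.72% called. The median log2 fold change over the 94 genes was 0.04, against 0.01 for all genes tested. In the Rps3a3-low set alone 10 genes of the lists passed.

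Among the 14 genes listed under glutaminases and glutamine amidotransferases, 2 rose and 3 fell. Most of them encode enzymes that hydrolyse glutamine or take its amide nitrogen. The list also holds related enzymes that do neither, such as Asrgl1. Gfpt2, which starts the hexosamine pathway, averaged 28.4 ± 2.38 CPM over the 5 controls and 14.8 ± 3.80 CPM over the 4 cKO libraries (SD here and below), and its log2 fold change was -0.94 (SE 0.15), with an adjusted p of 0.00113 in edgeR's test. Asrgl1, an asparaginase-like enzyme, went from 41.2 ± 2.68 to 26.0 ± 2.96 CPM (log2 fold change -0.66, SE 0.09, adjusted p = 0.000311). The remaining 3, named after their values were seen, were the CTP synthase gene Ctps2 (-0.30) and the genes for the first enzymes of pyrimidine and purine synthesis, Cad (0.45) and Ppat (0.22).

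The transaminases and dehydrogenases linked to glutamate counted 17 tested genes, of which 1 rose and 2 fell. Gpt2, the mitochondrial alanine transaminase, which makes α-ketoglutarate from glutamate, had 29.8 ± 5.52 CPM in controls and 14.3 ± 2.25 CPM in cKO, and its log2 fold change was -1.06 (SE 0.14) at an adjusted p of 0.000415 in edgeR's test. All cKO libraries were below all controls. The others, named after their values were seen, act on proline: Prodh, which degrades it, changed by -0.57 and Pycr1, which makes it, by 0.44 on the log2 scale. Got2, the mitochondrial aspartate transaminase and the gene of the list with the highest CPM, a rank not corrected for length here or in the lists below, overlapped between the groups (-0.13, SE 0.08, adjusted p = 0.277). Of 10 genes of glutathione synthesis and turnover, 0 passed in edgeR's test, 2 had an unadjusted p under 0.05 and 1 passed in DESeq2. Oplah, the one with the highest CPM, had an estimate of 0.27 on the log2 scale (SE 0.14, adjusted p = 0.217).

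Other amino acid transporters were 27 tested genes, of which 5 rose and 3 fell. Both of the called genes that rose encode glutamate carriers of the plasma membrane. Slc1a1 went from 10.2 ± 2.59 to 22.7 ± 6.79 CPM (log2 fold change 1.16, SE 0.24, adjusted p = 0.00834 in edgeR's test), with 29.3 and 27.7 CPM in cKO replicates 2 and 3 and 18.0 and 15.8 CPM in cKO replicates 1 and 4. With the replicate number as a block Slc1a1 did not pass (adjusted p = 0.089 in edgeR's test). Slc1a3 went from 4.61 ± 0.763 to 7.36 ± 0.956 CPM (0.68, SE 0.15, adjusted p = 0.00853). Slc38a9, a lysosomal relative of the Slc38 members that senses arginine, fell from 29.5 ± 2.17 to 17.1 ± 2.77 CPM (-0.79, SE 0.11, adjusted p = 0.000443). Of the 5 others that passed without being called, Slc7a2, Slc38a4 and Slc43a2 rose and Slc7a1 and Slc25a13 fell; they were named after their values were seen. Slc25a12, the mitochondrial aspartate-glutamate carrier and the gene of the list with the highest CPM, had an estimate of -0.18 (SE 0.06, adjusted p = 0.0556).

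Of 16 regulators known to act on glutamine enzymes or transporters, 1 passed. Myc, whose product raises glutamine use in growing cells, had 7.46 ± 1.26 CPM in controls and 11.4 ± 1.36 CPM in cKO (log2 fold change 0.61, SE 0.14, adjusted p = 0.0109 in edgeR's test). Atf4, the amino acid response factor, named outside the rule for its known role, had 124.5 ± 7.09 and 127.0 ± 5.37 CPM (0.03, SE 0.06, adjusted p = 0.787). The highest CPM in the list was that of Nr3c1, which encodes the glucocorticoid receptor, a known activator of Glul transcription in muscle. It had 162.5 ± 12.7 CPM in controls and 138.3 ± 12.7 CPM in cKO (-0.23, SE 0.08, adjusted p = 0.0619).

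In the list of 10 tested glucocorticoid-responsive genes 4 rose and 1 fell. The called genes were the metallothioneins Mt2 (1.99, SE 0.26, adjusted p = 0.000475 in edgeR's test) and Mt1 (1.09, SE 0.17, adjusted p = 0.00123), which bind zinc and also respond to metals, and Cdkn1a (0.60, SE 0.10, adjusted p = 0.00176), a cell cycle inhibitor that is also a p53 target. Fkbp5 and Tsc22d3, canonical targets of the receptor named after their values were seen, moved in opposite directions, by 0.54 and -0.33 on the log2 scale. Pdk4, with the highest CPM of the list, ranged from 184.1 to 561.5 CPM in controls and from 249.96 to 486.4 CPM in cKO (0.13, SE 0.36, adjusted p = 0.845). Its within-set log2 differences had opposite signs, 0.92 in the low and -0.28 in the high set.

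**Figure D4:**
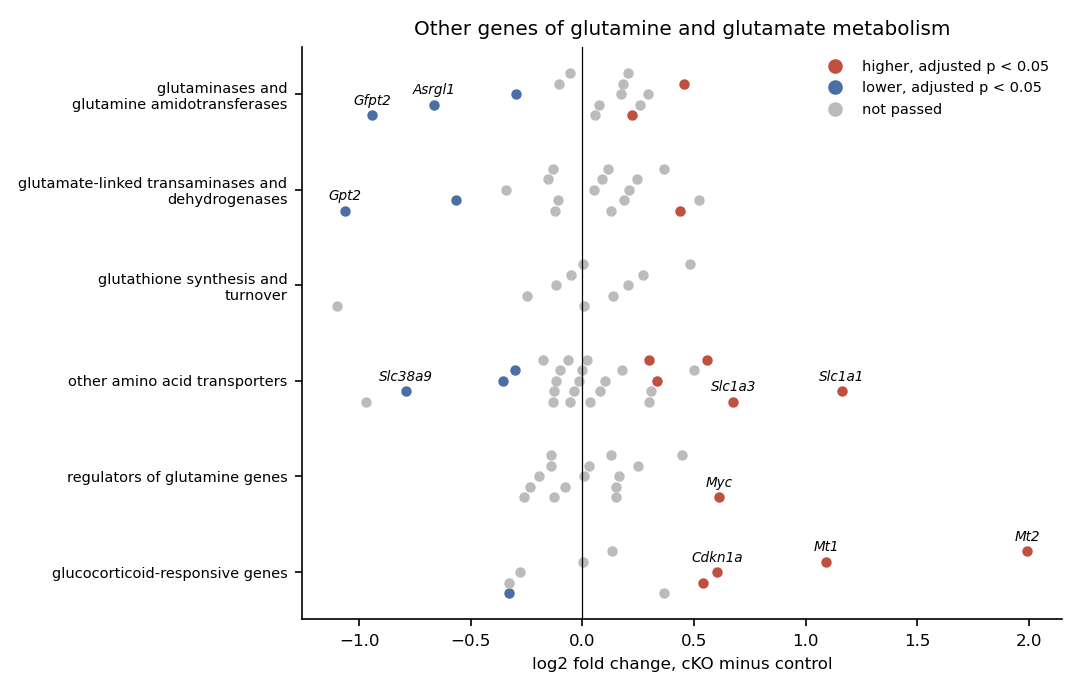
Log2 fold change, cKO minus control (horizontal axis), of the 94 tested genes in 6 lists (rows, points spread vertically for legibility); red and blue points passed an adjusted p of 0.05 as higher or lower and grey ones did not, and called genes are named. Mt2 at 1.99 and Slc1a1 at 1.16 are the highest of the named genes, and Gpt2 at -1.06 the lowest.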

How the data were processed

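Total RNA of whole ventricles was measured by poly(A)-selected, stranded, single-end RNA sequencing with reads of 75 bases in 9 libraries, 5 control and 4 cKO, grouped by their labels. The authors deposited raw read counts per gene in 1 table without normalization. The submitters' processing notes name the build mm10, STAR 2.4.2a and HTSeq 0.6.1, while the annotation release and whether the counting used strand are not given in the sources used here. Antisense, overlapping and near-identical genes are therefore uncertain. The table held 0 other sample columns. Symbols, coordinates and exon lengths came from GENCODE M21 (GRCm38), in which 36345 of 38293 identifiers were found.

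After filterByExpr (minimum count 10) and TMM scaling, genotypes were compared by the quasi-likelihood test of edgeR 4.0.16 in R 4.3.3 (two-sided, robust, genotype as the only term, Benjamini-Hochberg adjustment over 15318 genes). Each SE was taken as the log2 fold change over the root of its F value. The thresholds, an adjusted p under 0.05 and a fold over 1.5, follow the study's methods, whose test, DESeq2, was run here as version 1.42.0 as an alternative. The methods and a legend give different numbers of controls, and all 5 labelled controls were used. Library sets were split at 10 CPM of Rps3a3. Near-identical copies were sought with blastn 2.17.0 (at least 300 bases at 95% identity). Promoters were RefSeq sequences on GRCm38.p6, 250 bases upstream. Scripts were tested on simulated counts.

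The members and all gene lists were chosen with earlier results of these data known. By rule, the genes named are the members, each list's called genes (up to 5) and its gene with the highest mean CPM, the 5 genes most like Glul within groups, and Arid1a. Atf4, marker genes and list genes that passed without being called were named outside the rule, with their values seen. The result of 1 gene of the lists is not reported here. Libraries are separate samples by their labels, and counting precision was not the limit except for Gls2. Within groups, Spearman correlations were 0.982 to 0.995 and no libraries agreed within sampling noise.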

Additional observations from a re-analysis of the deposited data

Results flagged for a closer look

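Of 60 groups of libraries, from 30 measures of the members, their ratios and the named genes of the lists, 3 held a library set apart from the others of its group by Dixon's criterion, and chance flags about 1 in 20 groups. Slc38a2 was at 594.1 CPM in control replicate 2, while the other controls were at 651.4 to 660.4 CPM. Gpt2 was at 39.4 CPM in control replicate 2, with the other controls at 26.4 to 29.5 CPM. The share of Slc38a2 in the summed per-length level of the 3 Slc38 carriers was 89.0% in cKO replicate 1, against 85.7% to 85.9% in the other cKO libraries. No member passed the test of a genotype effect that differs between the library sets.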

How the results depend on the processing

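The log2 fold change of Glul stayed between 1.44 and 1.59 under all 19 alternatives, 1 of which, the addition of its pseudogene, was chosen after seeing the data. Slc7a5 passed the adjusted p in 9 of 18 alternatives, and Slc38a3 in 2 of 18. The number of members called was 2 in place of 1 with the library set as a term and in the Rps3a3-low set alone, where Slc38a3 was added. It ranged from 1 to 2 when each library was left out, with Slc7a5 added without control replicate 1 and without cKO replicate 1. The Rps3a3-low set alone, with 5 libraries, gave 620 called genes in place of 1030 and 10 pathway genes past the adjusted p in place of 22. The number of members that differed between the library sets ranged from 0 to 2 when each library was left out. Of the 5 genes most like Glul, 1 remained with the library set removed. The sign reversed for Pdk4 without control replicate 1 (-0.0057), control replicate 2 (-0.023) or cKO replicate 1 (-0.024), in a range up to 0.392 over the left-out libraries, and its value was 0.97 in the Rps3a3-low set alone. Gfpt2, Asrgl1, Gpt2, Slc38a9, Slc1a3, Mt1 and Mt2 passed the adjusted p in all 18 alternatives, and Slc1a1, Myc and Cdkn1a in 17. Nr3c1 and Slc25a12, which did not pass, did so in 3 of 18. The causes were not tested.

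Replicate numbers were not taken to pair the samples: the deviations of equally numbered libraries correlated at -0.05, 0.07, -0.01 and 0.30, and 1 control correlated best with its own number. These values cannot decide whether litters were shared, since the labels give no litter. With the replicate number as a block, which leaves out control replicate 5, 879 genes and 1 member were called, Slc7a5 had an adjusted p above the threshold, and Slc1a1, at a log2 fold change of 1.21, no longer passed (adjusted p = 0.089). The addition of other genes whose symbols start with Glul was not run, since there were none, and the interaction could not be estimated without cKO replicate 4.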
